A study of Caenorhabditis elegans with 24 samples.

Results

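The left arm of chromosome V is described here from DamID reads of Caenorhabditis elegans larvae. It was taken as every 10 kb bin of that chromosome that starts below 7 Mb, which gave 700 of the 10028 nuclear bins with counts (6.98%). The bins were also summed into 70 windows of 100 kb and 7 segments of 1 Mb, counted from the left end of the chromosome. The study joined the DNA adenine methyltransferase Dam to emerin (Dam-EMR) or to GFP (GFP-Dam) and read methylated GATC sites from 24 libraries in 8 groups of 3 replicates. Each fusion was carried by separate strains of 4 backgrounds: GFP::LMN-1(Y59C) with the cec-4(ok3124) mutation (Y59C cec-4), GFP::LMN-1(Y59C) with cec-4 intact (Y59C), GFP::LMN-1 together with cec-4(ok3124) (called GFP::LMN-1 cec-4), and GFP::LMN-1 alone (called GFP::LMN-1). Every group therefore carried a GFP-tagged lamin, and none was without one. All animals were L3/L4 larvae fed Dam-negative bacteria and grown for 26 h at 22.5 °C. The fusions stood behind the heat shock promoter hsp-16.41, left uninduced, and their expression needed a FLP recombinase driven from the promoter of myo-3, a muscle myosin gene. DNA came from whole larvae. The sample labels name body wall muscle while the series' design text names the intestine, and DNA reads do not show which tissue was methylated.

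Emerin is an integral protein of the inner nuclear membrane, so Dam-EMR methylates DNA that comes near the nuclear envelope. GFP-Dam is not anchored there and marks how accessible a region is to Dam, which is why the ratio of the fusions is read as envelope contact. LMN-1 is the only lamin of the worm, the Y59C change models a lamin mutation of Emery-Dreifuss muscular dystrophy, and CEC-4 is a chromodomain protein of the nuclear periphery that holds chromatin methylated on histone H3 lysine 9. The arms of worm autosomes carry most of that methylation. The left arm of V holds 1563 protein-coding genes in the RefSeq annotation, among them 353 genes of chemoreceptor families (sr and str genes, receptors of sensory neurons) and 85 nuclear hormone receptor (nhr) genes.

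The libraries differed in depth by fusion. Nuclear reads ran between 34946 and 6163102 per Dam-EMR library, against 2726612 to 19412314 per GFP-Dam library. The shallowest library, Dam-EMR in Y59C replicate 3, had 1441 reads on the whole arm. Empty bins made up 3.57% to 49.1% of the arm, depending on the Dam-EMR library, and 3.29% to 3.86% of it among GFP-Dam libraries. Over the 69 windows that held reads, the CPM (reads per 1000000 nuclear reads of the library) of different libraries correlated with a median r of 0.786 among Dam-EMR libraries and 0.975 among GFP-Dam libraries, as a description over windows that share their libraries. The coefficient of variation over 12 libraries had a median of 34.8% for Dam-EMR and 17.8% for GFP-Dam, and was larger for Dam-EMR in 65 of the 69 windows.

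The arm took a slightly larger share of the Dam-EMR reads than of the GFP-Dam reads. It held 5.03% ± 0.74 of the nuclear reads of Dam-EMR libraries (SD, n = 12, range 4.12% to 6.62%) and 4.42% ± 0.52 of those of GFP-Dam libraries (SD, n = 12, range 3.25% to 5.02%). The ranges overlapped, but when libraries were paired by strain and replicate number the Dam-EMR share was the larger in all 12 pairs. The ratio of the shares lay between 1.00 in GFP::LMN-1 replicate 1 and 1.37 in Y59C cec-4 replicate 3. Without the 16 bins that exceed 0.5% of a library, none of them on the arm, the Dam-EMR share was the larger in 10 of 12 pairs. The ratio was then 1.04 in Y59C cec-4 replicate 3, 0.988 in Y59C replicate 3 and 0.983 in GFP::LMN-1 replicate 3, and the highest was 1.33 in Y59C replicate 1. In the Y59C cec-4 strain the Dam-EMR share was 4.90% ± 0.49, against a GFP-Dam share of 4.17% ± 0.80 (SD, n = 3 each). In the Y59C strain these shares were 5.05% ± 1.37 and 4.39% ± 0.53. For GFP::LMN-1 cec-4 they were 5.14% ± 0.75 and 4.51% ± 0.37, and for GFP::LMN-1 5.03% ± 0.56 and 4.62% ± 0.51.

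Both fusions left most reads at the inner end of the arm. Segment 7, next to the chromosome middle, held 12991 ± 866 CPM in Dam-EMR libraries and 12491 ± 1525 in GFP-Dam libraries (SD, n = 12 each). Segment 1, at the chromosome end, held 6128 ± 1382 CPM in Dam-EMR libraries and 4694 ± 667 in GFP-Dam libraries. Segment 3 held the fewest, 4634 ± 1140 in Dam-EMR libraries and 3759 ± 600 in GFP-Dam libraries, and 79 of its 100 bins had any read. Per bin with reads, segment 7 had 133 CPM in Dam-EMR libraries and 127 in GFP-Dam libraries, and segment 3 had 58.7 in Dam-EMR libraries and 47.6 in GFP-Dam libraries.

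**Figure D1:**
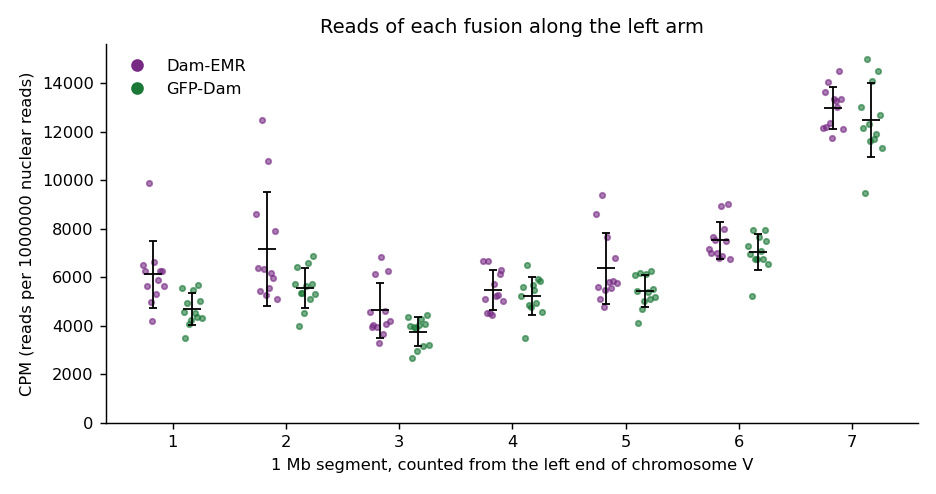
CPM in each 1 Mb segment of the arm, with Dam-EMR libraries left of GFP-Dam libraries. Points are 12 libraries of each fusion and bars the mean ± SD. Both fusions had their highest values in segment 7, where Dam-EMR averaged 12991 and GFP-Dam 12491 CPM.

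Among 1 Mb segments, the mean ratio of the fusions was highest in segment 1, with little lead over segment 2. It was near the genome's median at the inner end. For windows and segments it is given as log2 of Dam-EMR over GFP-Dam reads per library total, with 1 read added. The median of all nuclear windows of the same pair is subtracted. For 10 kb bins, the values of single pairs had 5 CPM added to each fusion in place of 1 read. The replicate means, strain means and counts of pairs above 0 given for bins rest on those values. In segment 1 the 12 pairs lay between -0.14 and 0.94 with a median of 0.30, and 11 were above 0. The Y59C pair of replicate 3, the one with the shallowest library, was the pair below 0. The edgeR quasi-likelihood fit over all segments of the genome gave a log2 ratio of 0.31 ± 0.09 (SE) there, with an adjusted p of 0.0257. Segment 1 was the single arm segment called higher of 7, where 17.5% of the genome's 103 segments were called higher, and none of the 7 was called lower. Segments 2 and 3 had log2 ratios of 0.29 and 0.23 with adjusted p of 0.0625 and 0.0891, and 10 and 9 of 12 pairs above 0. Without replicate 2 the fit gave 0.37 in segment 2 and 0.28 in segment 1, and without replicate 3 it gave 0.40 and 0.37. In the other fits segment 1 was above segment 2. At 100 kb the outermost window, V:1-100000, had a mean log2 ratio of -0.07 with 5 of 12 pairs above 0.

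The 4 inner segments stayed closer to 0. Their mean log2 ratios over pairs were -0.01 ± 0.12 in segment 4, 0.14 ± 0.20 in segment 5, 0.03 ± 0.13 in segment 6 and -0.01 ± 0.17 in segment 7 (SD, n = 12 each), and the fit gave an adjusted p of 0.259 for segment 5, the lowest of the 4. The mean of segments 1 to 3 exceeded that of segments 5 to 7 in 11 of 12 pairs, by 0.20 ± 0.24 (SD, n = 12), as a description without a test. Replicate 1 weighed on this slope. In segment 2 the 4 pairs of replicate 1 averaged 0.62, those of replicate 2 averaged 0.12 and those of replicate 3 averaged 0.02. Segment 1 was more even, with 0.33, 0.39 and 0.17 in replicates 1, 2 and 3. Its call was lost without replicate 2 (adjusted p 0.116) and without replicate 3 (0.123), while its log2 ratio was 0.22 or higher in every such fit. Scaling by library totals alone gave 0.39 with an adjusted p of 0.0571.

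**Figure D2:**
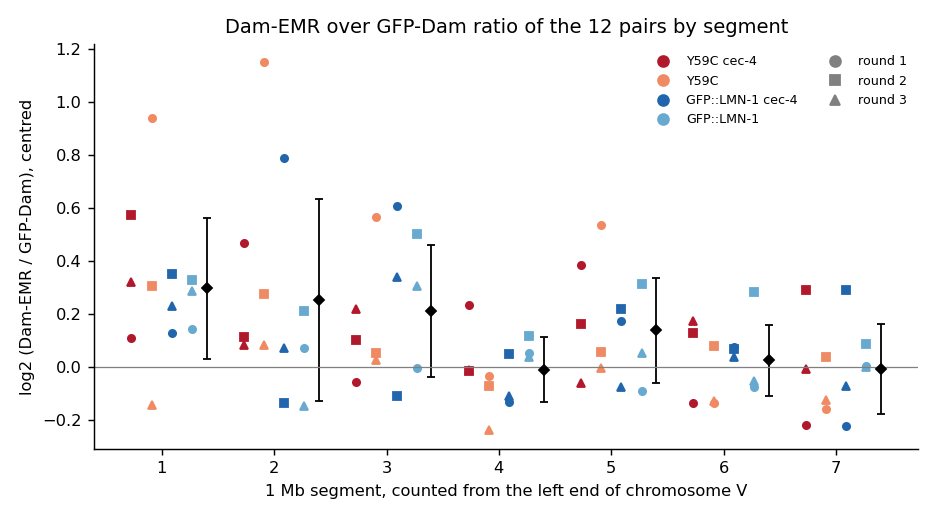
Centred log2 ratio of Dam-EMR over GFP-Dam reads in each 1 Mb segment. Colours are strains, symbols replicates (rounds of growth), and black diamonds the mean ± SD of the 12 pairs. Segment 1 had 11 of 12 pairs above 0, and segments 6 and 7 were spread on both sides of 0.

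Taken as a whole, the arm stood only a little above the genome. The median centred log2 ratio of its 69 windows averaged 0.13 ± 0.17 over pairs (SD, n = 12, range -0.05 to 0.57), and 10 of 12 pairs were above 0. Replicates 1, 2 and 3 gave 0.24, 0.10 and 0.04. Of its windows 58.1% lay above the genome's median in an average pair. The middle of the same chromosome (7 to 14 Mb) had a median of -0.12 ± 0.15, the right arm of V 0.30 ± 0.34 and the left arm of II 0.34 ± 0.41. The left arm of V was above the middle of V in 10 of 12 pairs, by 0.25 ± 0.30, and below the right arm of V in 9 of 12 pairs, with a difference of -0.17 ± 0.25 (SD, n = 12 each). These are descriptions, and no test was made of the differences between regions. Whether the limit at 7 Mb falls on a step was not tested. The last window inside it had a mean log2 ratio of 0.10 ± 0.35 and the first window beyond it -0.13 ± 0.50 (SD, n = 12 each).

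**Figure D3:**
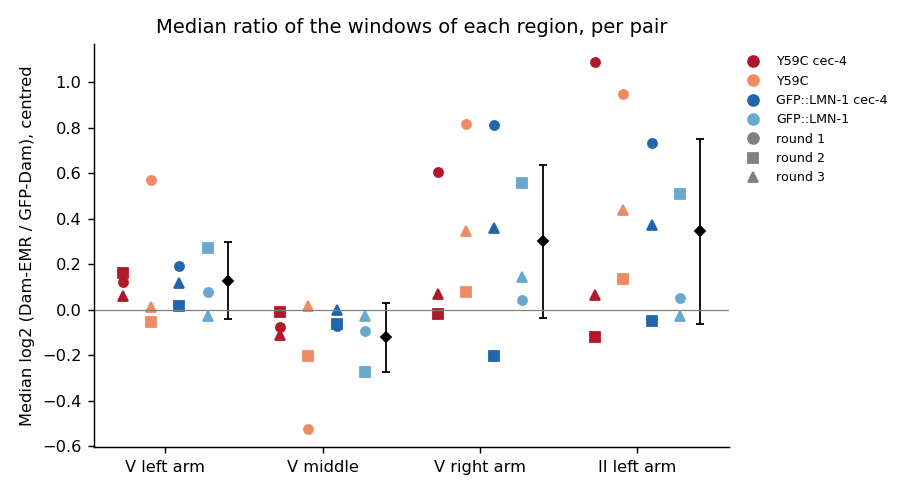
Median centred log2 ratio of the 100 kb windows of each region, 1 point per pair, with colours for strains and symbols for replicates. Black diamonds are the mean ± SD of 12 pairs. The left arm of V (0.13 ± 0.17) lay between the middle of V (-0.12 ± 0.15) and the right arm of V (0.30 ± 0.34).

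At 100 kb the higher ratios lay in separate windows. With edgeR and adjustment over all nuclear windows, 7 of 69 tested windows were higher for Dam-EMR and 0 were lower, where 5.78% of the genome's 1004 windows were called higher and 2.59% lower. At an unadjusted p under 0.05, 22 arm windows were higher and 5 lower. The genome's counts at an unadjusted p were not taken, here or below. Such counts therefore do not set the arm apart from the genome. DESeq2 called 12 higher and 1 lower, where it called 109 and 47 of 1003 windows in the genome. All 7 windows lay in the first 4 Mb. In 9 of the 69 windows (13%) at least 10 of 12 pairs were above 0, against 9.46% of the genome's windows, and in 3 (4.35%) at most 2 pairs were, again against 9.46%. No window was above 0 in every pair. Leaving out replicate 1, 2 or 3 left 4 (1 of them lower), 6 or 0 called windows, beside 79, 56 and 1 of the genome's 1004. With the replicate number as a block 6 were higher and 1 lower (65 and 45 of 1004 in the genome). Among them were V:3700001-3800000 (log2 ratio 0.56, adjusted p 0.0480) and the lower V:1400001-1500000 (-0.35, adjusted p 0.0265), which were not called without the block.

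The window with the smallest p was V:1800001-1900000, which holds the heat shock genes hsp-16.2 and hsp-16.41 beside the chemoreceptor genes srt-41 and srt-42. Dam-EMR libraries had between 609 and 5252 CPM there with a median of 956, against 483 to 741 with a median of 637 in GFP-Dam libraries. The log2 ratio was 1.07 ± 0.25 (SE), the adjusted p 0.0147, and 11 of 12 pairs were above 0. Y59C replicate 1 and GFP::LMN-1 cec-4 replicate 1 stood apart, with 5252 and 3895 CPM in their Dam-EMR libraries. The replicate means of the ratio were 1.72, 0.53 and 0.27. Without replicate 3 the adjusted p was 0.0976, and without replicate 1 the log2 ratio was 0.43.

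The 10 kb bin of the heat shock genes, V:1800001-1810000, carried most of this. Its Dam-EMR libraries had between 179 and 4531 CPM with a median of 279, against 108 to 249 with a median of 154 in GFP-Dam libraries. The log2 ratio was 2.11 ± 0.41 (SE) with an adjusted p of 0.00838. The highest values were again Y59C replicate 1 (4531 CPM) and GFP::LMN-1 cec-4 replicate 1 (3568), while the other 10 Dam-EMR libraries had between 179 and 700. The constructs carry the promoter of hsp-16.41, so reads of a construct could be counted in this bin, and their part in the result was not tested. Leaving out replicate 1, 2 or 3 ended the call, with adjusted p of 0.0841, 0.0501 and 0.109, and the log2 ratio was 0.78 without replicate 1, 2.55 without replicate 2 and 2.54 without replicate 3.

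Next to one another lay 2 chemoreceptor-rich windows. V:2900001-3000000 holds 30 protein-coding genes, of which 24 are chemoreceptors, mainly of the srw and srh families (such as srw-141, srh-146, srh-38 and srh-247). Its Dam-EMR libraries had 37.3 to 302 CPM with a median of 115, against 28.4 to 111 with a median of 53.2 in GFP-Dam libraries. The log2 ratio was 1.04 ± 0.29 (SE), the adjusted p 0.0304, and 11 of 12 pairs were above 0. V:3000001-3100000 (srw-112, srw-136, srw-135, srw-8) had 55.0 to 473 CPM in Dam-EMR libraries with a median of 123, against 54.4 to 127 with a median of 83 in GFP-Dam libraries. Its log2 ratio was 0.93 ± 0.27 (SE) with an adjusted p of 0.0378, also above 0 in 11 of 12 pairs. Among the 11 is the Y59C pair of replicate 3, with 2 Dam-EMR reads there, 57.2 CPM against 64.8 in GFP-Dam. That pair is above 0 only through the 1 read added. The ranges of the fusions overlapped in both windows. The replicate means of the ratio were 1.94, 0.40 and 0.75 in the first of them and 1.29, 0.40 and 0.63 in the other, and without replicate 1 the log2 ratios were 0.61 and 0.62 with adjusted p of 0.237 and 0.163. Without replicate 3 the adjusted p were 0.198 and 0.218.

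V:1000001-1100000 holds ergo-1, an Argonaute of the small RNA pathways, the neuropeptide gene flp-34, the chemoreceptor gene str-67 and the C-type lectin gene clec-203. Dam-EMR libraries had 268 to 1228 CPM there with a median of 438, against 238 to 364 with a median of 313 in GFP-Dam libraries. The log2 ratio was 0.77 ± 0.21 (SE), the adjusted p 0.0258, and 10 of 12 pairs were above 0. The replicate means differed here, with 1.21 and 0.76 in replicates 1 and 2 and 0.02 in replicate 3. V:400001-500000, a cluster of nhr genes with srh-62, nhr-252, srh-33 and srh-34, had 172 to 1104 CPM in Dam-EMR libraries with a median of 400, against 184 to 412 with a median of 317 in GFP-Dam libraries. Its log2 ratio was 0.61 ± 0.18 (SE) with an adjusted p of 0.0419, above 0 in 10 of 12 pairs. Leaving out any 1 replicate ended both calls, with adjusted p between 0.0652 and 0.175, and scaling by library totals alone ended that of V:400001-500000 (0.0615). Without replicate 1 the log2 ratios were 0.43 in V:1000001-1100000 and 0.38 in V:400001-500000.

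The remaining 2 called windows were less even and fall outside the rule by which windows were named, so they are given after their values were seen. V:3900001-4000000, with the cytochrome P450 genes of the cyp-35 and cyp-34A groups, had a log2 ratio of 0.95 with an adjusted p of 0.0447 and 9 of 12 pairs above 0. V:2500001-2600000 had 1.59 with an adjusted p of 0.0470, 8 of 12 pairs above 0 and an SD over pairs of 2.09. More than the first part of that window gave no reads: the stretch V:2350001-2560000 was empty in every library and reaches into it. All reads of the window came from V:2560001-2600000, so its call rests on that part alone. Its GFP-Dam level, a mean of 38.2 CPM, was the lowest among the arm's windows with reads. The Y59C pair of replicate 3 had 1 Dam-EMR read there. With the replicate number as a block, both calls were lost, with adjusted p of 0.0593 and 0.0539. They were also lost without the Y59C pair of replicate 3 (0.0655 and 0.0653). The log2 ratio of V:3900001-4000000 was 0.37 without replicate 1, and that of V:2500001-2600000 was 1.03 without replicate 2.

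**Figure D4:**
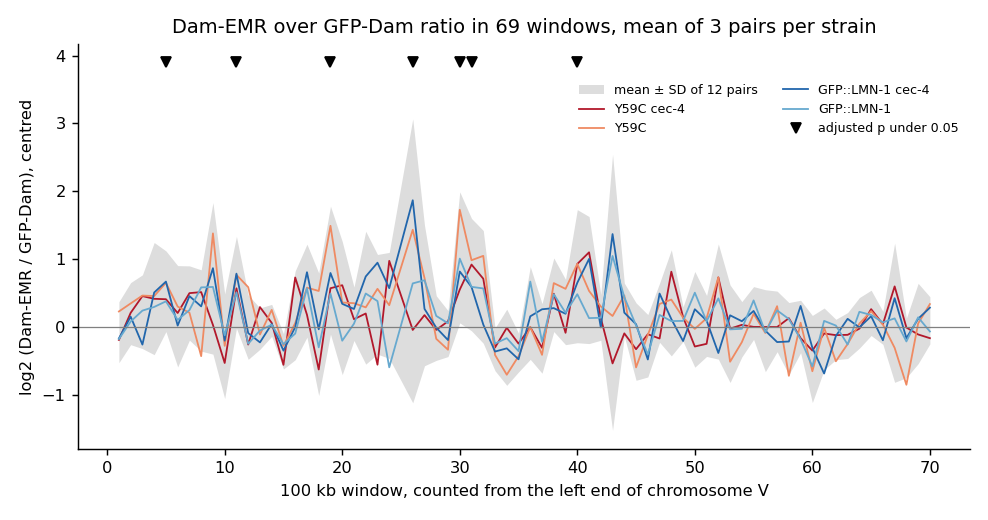
Centred log2 ratio of Dam-EMR over GFP-Dam reads in the 69 windows of 100 kb that held reads. Lines are strain means of 3 pairs, the grey band the mean ± SD of 12 pairs, and triangles the 7 windows with an adjusted p under 0.05, and window 25, with no reads, is bridged by a straight line. The 4 strain lines cross throughout, and the called windows all lie at window 40 or before.

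Higher ratios went with fewer GFP-Dam reads. The 69 windows ran from a mean of 38.2 to 1858 CPM in GFP-Dam libraries and from 71.3 to 1869 in Dam-EMR libraries. On the log2 scale of these means the SD over windows was 1.03 for Dam-EMR and 1.32 for GFP-Dam, and the levels of the fusions correlated with an r of 0.957 (69 windows). The mean log2 ratio and the log2 GFP-Dam level had an r of -0.71 over the same windows, as a description, because the GFP-Dam reads are the denominator of the ratio and the windows share the libraries. The 23 windows with the lowest GFP-Dam level had a median log2 ratio of 0.64, the middle 23 had 0.18 and the upper 23 had -0.02. Of the 7 called windows, 6 were among the windows with a GFP-Dam level under the median, and the window of the heat shock genes was the other.

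Windows rich in chemoreceptor genes were also windows of few reads. The 16 windows with 10 or more such genes had a median log2 ratio of 0.47 and a median GFP-Dam level of 275 CPM. The 14 windows without any had -0.00013 and 1112 CPM. The 7 called windows held 70 chemoreceptor genes among 172 protein-coding genes, where the whole arm holds 353 among 1563. Of these, V:2500001-2600000 held 12 chemoreceptor genes among 25, and several of them, such as srd-61 and srt-2, lie in its part without reads. Such genes are counted by position only. The part of the read level in this difference was not tested.

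**Figure D5:**
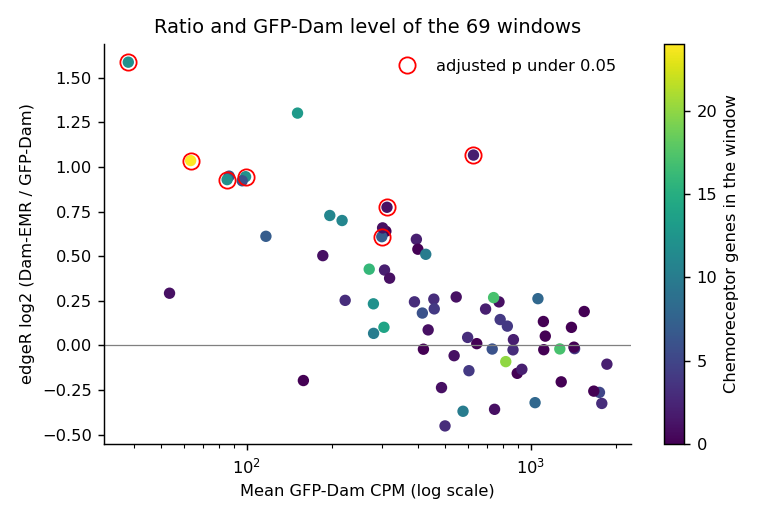
The edgeR log2 ratio of each of the 69 windows against its mean GFP-Dam CPM (log scale), coloured by the number of chemoreceptor genes, with red rings on windows with an adjusted p under 0.05. Ratios were lower at higher GFP-Dam levels, where GFP-Dam is the denominator of the ratio, and 6 of 7 ringed windows lie under the median of that level.

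Among the 700 bins of 10 kb, 667 passed the filter on low counts, 10 had reads below it and 23 had 0 reads in every library. Of those tested, 20 were higher for Dam-EMR (the genome's share was 1.29%) and 4 were lower (genome 1.80%). At an unadjusted p under 0.05 there were 74 and 47, and DESeq2 called 48 and 6 of 663, beside 517 and 378 of 9667 in the genome. Of the 20 higher bins, 16 lay in the first 5 Mb, which held 470 of the 667 tested bins. Only 7 of the 20 were above 0 in at least 10 of 12 pairs, and 3 of the 4 lower bins were above 0 in at most 2. The count depended on the libraries. Leaving out replicate 1 gave 3 higher and 10 lower bins, leaving out replicate 2 gave 3 higher and 0 lower, leaving out replicate 3 gave none, and leaving out the Y59C pair of replicate 3 gave 8 and 7. In the same order the genome had 104 and 295, 23 and 7, 0 and 0, and 67 and 249 called bins. With the replicate number as a block there were 10 and 3, beside 75 and 184 of 9735 in the genome.

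Apart from the heat shock bin and that of srd-9, 5 of the higher bins were above 0 in at least 10 of 12 pairs. V:190001-200000 (arid-1, a gene of an AT-rich interaction domain protein) had 4.25 to 749 CPM in Dam-EMR libraries with a median of 113, against 6.34 to 57.0 with a median of 24.5 in GFP-Dam libraries. Its log2 ratio was 2.14 ± 0.56 (SE) with an adjusted p of 0.0370, and 10 of 12 pairs were above 0. V:3770001-3780000 (rips-1 and cysl-3, an enzyme of the cysteine synthase family) had 26.9 to 485 CPM in Dam-EMR libraries with a median of 75.2, against 21.6 to 72.4 with a median of 37.6 in GFP-Dam libraries, and a log2 ratio of 1.65 ± 0.39 (SE) with an adjusted p of 0.0259. In both bins the highest value was the Dam-EMR library of Y59C cec-4 replicate 1, and the ranges overlapped.

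V:6590001-6600000, which holds the centromere protein gene hcp-1, had 12.3 to 231 CPM in Dam-EMR libraries with a median of 73.0, against 25.7 to 54.2 with a median of 37.7 in GFP-Dam libraries. Its log2 ratio was 1.21 ± 0.32 (SE) with an adjusted p of 0.0389, and the replicate means were 0.59, 1.27 and 0.83. V:6400001-6410000 (bcf-1) had a log2 ratio of 1.36 with an adjusted p of 0.0413, and V:1180001-1190000, with no gene of a given symbol, 1.69 with 0.0468. V:5350001-5360000, with the chemoreceptor gene srd-9 and nhr-216, had the smallest ratio of the 20 higher bins, 1.06 ± 0.27 (SE) with an adjusted p of 0.0341, and was the one above 0 in all 12 pairs. It had 57.2 to 176 CPM in Dam-EMR libraries with a median of 98.3, against 24.7 to 76.4 with a median of 53.5 in GFP-Dam libraries. The Y59C pair of replicate 3 rests there on 2 Dam-EMR reads, 57.2 CPM against 36.6 in GFP-Dam. The calls of arid-1, rips-1, bcf-1, V:1180001-1190000 and srd-9 were lost without any 1 of the 3 replicates, and that of hcp-1 held without replicate 1 (adjusted p 0.0389) and was lost without replicate 2 or 3. Without the Y59C pair of replicate 3 the adjusted p were 0.0627 for arid-1, 0.0709 for hcp-1 and 0.0696 for V:1180001-1190000. Library totals alone gave 0.0537 for bcf-1 and 0.0588 for V:1180001-1190000, and the replicate block 0.0532 for the last of these.

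The lower bins were of moderate GFP-Dam level and nearly empty in some Dam-EMR libraries. V:3910001-3920000 (srx-68 and srx-67) had 0 to 35.8 CPM in Dam-EMR libraries with a median of 12.8, against 14.3 to 36.4 with a median of 25.2 in GFP-Dam libraries. No pair was above 0, and the log2 ratio was -1.91 ± 0.49 (SE) with an adjusted p of 0.0340. The Y59C strain was the lowest there, with a mean ratio of -2.61, and 2 of the 12 Dam-EMR libraries were at 0. V:980001-990000, with unc-34 (an Enabled protein of axon guidance), had 0 to 31.2 CPM in Dam-EMR libraries with a median of 3.85, against 19.7 to 32.2 with a median of 24.7 in GFP-Dam libraries. Its log2 ratio was -1.79 ± 0.48 (SE) with an adjusted p of 0.0408, and 1 of 12 pairs was above 0. V:3640001-3650000 had a log2 ratio of -2.05 with an adjusted p of 0.0274 and 2 of 12 pairs above 0. Without replicate 1 these adjusted p were 0.0664, 0.0555 and 0.0562, without replicate 2 they were 0.0995, 0.0564 and 0.153, and without replicate 3 they were 0.241, 0.293 and 0.116. The log2 ratio of V:3910001-3920000 was -3.19 without replicate 2, and that of V:3640001-3650000 was -3.33 without replicate 3 and -3.32 without the Y59C pair of that replicate.

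The 353 chemoreceptor genes of the arm lay in 200 bins, of which 183 were tested (27.4% of the tested arm bins). Of these 9 were higher (4.92%) and 2 lower (1.09%), beside 3.00% higher and 0.600% lower among all tested arm bins, as a description without a test. In the rest of the genome 581 chemoreceptor bins were tested, with 1.72% higher, 1.03% lower and a median log2 ratio of 0.04. Those of the arm had a median log2 ratio of 0.23, where all 667 tested arm bins had 0.13 and all 9735 tested bins of the genome -0.07. The largest was the bin of srt-38 and srt-20, V:4270001-4280000, with a log2 ratio of 3.96 and an adjusted p of 0.0329. It had 0 to 263 CPM in Dam-EMR libraries with a median of 2.94, against 0.167 to 3.58 with a median of 1.43 in GFP-Dam libraries. Only 8 of 12 pairs were above 0, the replicate means were 3.56, 0.23 and -0.38, and without replicate 1 the fitted log2 ratio turned to -0.48 with an adjusted p of 0.811. With the replicate number as a block it was 2.34 with an adjusted p of 0.174.

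The 85 nhr genes lay in 52 tested bins, of which 2 were higher (3.85%) and 0 lower, with a median of 0.24. The higher ones held nhr-260 (log2 ratio 3.02, 7 of 12 pairs above 0) and nhr-216. Cytochrome P450 genes, enzymes of lipid and drug oxidation, lay in 18 tested bins, 2 of them higher (11.1%, cyp-35A5 with 2.54 and cyp-33C12 with 1.85), with a median of 0.38. UDP-glucuronosyltransferase genes lay in 14 tested bins, of which 1 was higher (7.14%, ugt-13, log2 ratio 2.37, adjusted p 0.0496), with a median of 0.10. These shares rest on 1 or 2 bins each and stand beside the 3.00% of all tested arm bins. Without replicate 1 the log2 ratio turned to -0.65 in the bin of ugt-13, and was 0.38 in that of nhr-260 and 1.13 in that of cyp-35A5. With the replicate number as a block the adjusted p were 0.121 for nhr-260, 0.0622 for cyp-35A5 and 0.118 for ugt-13, and these calls were also lost without any 1 of the 3 replicates. That of cyp-33C12 was lost without replicate 2 or 3 (0.220 and 0.266).

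Of the 2 tested bins with heat shock genes, that of the hsp-16 genes was called higher, with the values given above, and the other was not called. The remaining lists with at least 3 genes on the arm had no bin called higher. The median log2 ratio was 0.32 over 7 tested bins of C-type lectins, 0.51 over 4 of cuticle collagens, 0.01 over 6 of neuropeptides, -0.34 over 10 of F-box genes, 0.17 over 3 of homeobox and helix-loop-helix factors and -0.61 over 5 of glutathione S-transferases. Of 8 tested bins with uncoordinated (unc) genes, that of unc-34 was lower, and the median was -0.13. The 6 genes of the body wall muscle list on the arm had a median of -0.26 and no call. Of their bins 2 were above 0 and 4 below, between -0.57 for unc-60, an actin depolymerising factor, and 0.59 for tnt-4, a troponin T, with adjusted p of 0.290 and 0.544. The median over the body wall muscle genes elsewhere in the genome was -0.29.

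One stretch of the arm gave no reads at all. V:2350001-2560000, 21 bins and 210 kb, was at 0 in all 24 libraries, which together hold 139773136 nuclear reads. It was the longest such run of the genome, where the next had 7 bins, and 23 of the genome's 55 empty bins lay on the arm. In the deepest GFP-Dam library the arm's bins with reads had a median of 404 reads. The bins at its edges held 689 and 676 reads over all libraries. The stretch holds 55 genes, of which 46 are protein coding and 17 are chemoreceptors. In the annotation 21 pairs of genes of equal length recur there at a spacing of 107961 to 108279 bp, among them srt-1 with srt-2 (2060 bp each), srd-75 with srd-61 (2151 bp each) and irld-53 with irld-35 (2111 bp each). No pair of equal length was found at any other spacing. How reads with more than 1 match were treated is not given in the sources used here, and their part in the empty stretch was not tested. A second run, V:6070001-6090000, had 2 empty bins. Nothing can be said of envelope contact for the genes in either run.

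The strains were compared to ask whether the Y59C lamin or the loss of CEC-4 changes envelope contact along the arm. The arm's median log2 ratio was 0.12 ± 0.05 in Y59C cec-4, 0.18 ± 0.34 in Y59C, 0.11 ± 0.09 in GFP::LMN-1 cec-4 and 0.11 ± 0.15 in GFP::LMN-1 (SD, n = 3 each). The Y59C pairs were the most spread, at 0.57, -0.05 and 0.01 in replicates 1, 2 and 3. The Y59C cec-4 pairs lay at 0.12, 0.16 and 0.06, the GFP::LMN-1 cec-4 pairs at 0.19, 0.01 and 0.12, and the GFP::LMN-1 pairs at 0.08, 0.27 and -0.03. Within replicates, Y59C minus GFP::LMN-1 was 0.07 ± 0.41, Y59C cec-4 minus Y59C was -0.06 ± 0.34 and GFP::LMN-1 cec-4 minus GFP::LMN-1 was 0.00 ± 0.22 (SD, n = 3 each). Each of these means was smaller than its spread, and 2 of 3 replicates were above 0 in each.

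No window of the arm passed the test between strains. With edgeR, 0 of 69 windows were called for the ratio in Y59C minus GFP::LMN-1, in GFP::LMN-1 cec-4 minus GFP::LMN-1, in Y59C cec-4 minus Y59C, in Y59C cec-4 minus GFP::LMN-1 or for the interaction of lamin and cec-4, and 0 of 1004 were called in the genome (0%). DESeq2 called 0 arm windows in these 5 comparisons. At an unadjusted p under 0.05 there were 2 higher and 2 lower arm windows in Y59C minus GFP::LMN-1, 2 and 3 in Y59C cec-4 minus Y59C, 1 and 0 in Y59C cec-4 minus GFP::LMN-1, 1 and 2 for the interaction, and none in GFP::LMN-1 cec-4 minus GFP::LMN-1. In counts simulated for Y59C minus GFP::LMN-1 on 1004 windows, 34% of windows with a 2-fold change and 80% of those with a 4-fold change were recovered. A change of 2-fold in a window would thus often be missed with these libraries. The simulated counts had the same spread for both fusions in each window. These comparisons share groups, so they are not independent of each other.

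The window with the smallest p in Y59C cec-4 minus Y59C, and also in Y59C minus GFP::LMN-1, was V:700001-800000, a cluster of srbc and srx chemoreceptor genes (srx-5, srbc-37, srbc-38, srbc-39). Its log2 ratios were -0.51, 1.22 and 0.84 in the Y59C cec-4 pairs, -0.56, -0.15 and -0.57 in the Y59C pairs, 0.04, 0.23 and 0.66 in the GFP::LMN-1 cec-4 pairs and 0.48, 0.55 and 0.72 in the GFP::LMN-1 pairs of replicates 1, 2 and 3. All 3 Y59C pairs were below the 3 GFP::LMN-1 pairs, while the Y59C cec-4 pairs overlapped the Y59C pairs. The fitted difference was 1.07 ± 0.37 (SE, adjusted p 0.779) in Y59C cec-4 minus Y59C and -1.05 ± 0.37 (adjusted p 1.00) in Y59C minus GFP::LMN-1.

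Within single strains, edgeR called 0 arm windows for Dam-EMR over GFP-Dam in any of the 4, where it called 1 window of the genome higher in Y59C cec-4 and 1 lower in Y59C (0.0996% each). At an unadjusted p under 0.05, Y59C cec-4 had 5 higher and 0 lower arm windows, Y59C 9 and 5, GFP::LMN-1 cec-4 4 and 1, and GFP::LMN-1 3 and 0. DESeq2 called 2 arm windows higher and 1 lower in Y59C, beside 19 and 14 of 1003 windows in the genome, and no arm window in the others. The lowest adjusted p of edgeR was that of the heat shock window in Y59C, 0.0712 with a log2 ratio of 1.98 ± 0.52 (SE). The difference in this number between strains was not tested apart from the comparisons above.

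The reads of each fusion were also compared between strains on their own. GFP-Dam reads gave 0 called arm windows and 0 at an unadjusted p under 0.05 in Y59C minus GFP::LMN-1, in GFP::LMN-1 cec-4 minus GFP::LMN-1 and in Y59C cec-4 minus Y59C, and DESeq2 also gave 0. Dam-EMR reads gave 0 called windows in these 3 comparisons with both tools, and 2 higher and 3 lower, 0 and 1, and 5 and 6 at an unadjusted p under 0.05 in the same order. All groups share 1 estimate of the spread, while the coefficient of variation had a median of 34.8% for Dam-EMR and 17.8% for GFP-Dam. The test may thus be too strict for GFP-Dam reads alone and too lenient for Dam-EMR reads alone. These coefficients also hold differences between strains and the noise of low counts, and a spread for each fusion was not fitted. In 10 kb bins GFP-Dam reads also gave 0 of 667 arm bins at an unadjusted p under 0.05. These 0 counts do not show equal accessibility.

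In 10 kb bins, a size added after the data were seen, the Dam-EMR reads of some arm bins passed the test, at shares below those of the genome. The spread shared with GFP-Dam may make the test lenient here too, which was not tested. In Y59C cec-4 minus Y59C, 15 of 667 arm bins were higher (2.25%, genome 2.76%) and 5 lower (0.750%, genome 1.04%), and with the replicate number as a block 10 and 2 (201 and 67 of 9735 in the genome). In Y59C minus GFP::LMN-1, 0 were higher (genome 0.0924%) and 4 lower (0.600%, genome 1.12%), with the block 1 and 4 (8 and 105 of 9735 in the genome). In GFP::LMN-1 cec-4 minus GFP::LMN-1 there were 0, with 27 higher and 23 lower at an unadjusted p under 0.05, and DESeq2 called 0 higher and 2 lower (34 and 17 of 9482 in the genome). The ratio to GFP-Dam gave 0 called arm bins in all these comparisons with edgeR, and 0.0205% of the genome's bins were lower in Y59C minus GFP::LMN-1. For Dam-EMR over GFP-Dam within the Y59C strain 0 arm bins were higher (genome 0.0616%) and 3 lower (genome 0.894%). Beside these counts, the share of empty arm bins was 17.3% ± 7.3 in the Dam-EMR libraries of Y59C cec-4, 32.5% ± 14.7 in those of Y59C, 13.6% ± 11.5 in those of GFP::LMN-1 cec-4 and 11% ± 4.8 in those of GFP::LMN-1 (SD, n = 3 each), and its part in the calls was not tested.

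The authors' deposited table of 100 kb log2 ratios, 1 averaged value per strain with no error, gave arm medians of 0.33 in Y59C cec-4, 0.24 in Y59C, 0.17 in GFP::LMN-1 cec-4 and 0.15 in GFP::LMN-1. The genome medians in the authors' deposited table were 0.24, -0.01, 0.00053 and 0.03 in the same order, so the high arm median of Y59C cec-4 stood beside a high median of its whole column. In the header of the GFP::LMN-1 cec-4 column of that table the Dam-EMR strain stands on both sides of the ratio. Read here as Dam-EMR over GFP-Dam, this column of the authors' deposited table had, over 69 arm windows, an r of 0.961 with the mean ratio of the GFP::LMN-1 cec-4 pairs and of 0.231 to 0.644 with those of the other strains.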

How the data were processed

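Mapped reads per 10 kb and 100 kb bin (counts, build ce11 per the submitters' processing notes, replicates apart) and log2 ratios per strain were deposited by the authors. The aligner, its filters and its handling of multiple matches were not given in the sources used here. Counts of 10 kb were used after removing 2 mitochondrial rows and 2 bins holding 1 in every library, and were summed to 100 kb and 1 Mb; on the arm, 2 windows differed from the deposited 100 kb counts, by at most 2 reads. The authors' log2 values serve for 1 comparison of medians. Gene names and positions are from RefSeq (WBcel235, the same assembly).

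Dam-EMR was compared with GFP-Dam by edgeR 4.0.16 (R 4.3.3; quasi-likelihood F test, TMM factors, filterByExpr), 8 groups of 24 libraries in 1 fit without a block. The p-values were adjusted by Benjamini-Hochberg over all nuclear features and called under 0.05. The SE of an edgeR log2 ratio is the size of that ratio divided by the square root of its F. It therefore comes from the same F as the p-value. DESeq2 1.42.0 was an alternative. The fit was tested on simulated data. Arm medians and shares are descriptions without a test.

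Per the design text each replicate was 1 round of growth of every strain side by side, so replicate numbers pair libraries. Deviations from the group means correlated with a median r of 0.656 (lowest 0.520) between GFP-Dam libraries of the same number, against -0.396 for different numbers. Between Dam-EMR libraries these were 0.203 (lowest -0.255) and -0.135. Between a Dam-EMR and a GFP-Dam library, as joined in each pair, they were 0.051 (range -0.282 to 0.460) and -0.020. Likeness by number was thus seen within each fusion and hardly between the fusions. Deviations within a group cancel out, so within a fusion the values for different numbers are partly negative by construction.

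Bins named are the 6 highest and 4 lowest called with that sign in at least 10 of 12 pairs, and up to 6 such windows; for each gene list, the called bins with the largest and smallest ratio; for strain comparisons, the window with the smallest p. The members, lists and tests were chosen with earlier results of these data known.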

Additional observations from a re-analysis of the deposited data

Results flagged for a closer look

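Segment 4 (V:3000001-4000000) was picked out because the effect of the cec-4 mutation on its log2 ratio of Dam-EMR over GFP-Dam ran in opposite directions under the 2 lamins, in every replicate. Y59C cec-4 minus Y59C was 0.19 ± 0.11 and above 0 in 3 of 3 replicates, and GFP::LMN-1 cec-4 minus GFP::LMN-1 was -0.13 ± 0.06 and below 0 in 3 of 3 (SD, n = 3 each). The difference between these effects was 0.32. The interaction term of the edgeR fit on 1 Mb segments, added after seeing the data, was 0.29 ± 0.27 (SE) with an unadjusted p of 0.295 and an adjusted p of 0.996, so the difference did not pass the test. The other 6 segments, the arm median and the 22 named bins and windows showed no such split.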

How the results depend on the processing

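For 10 kb bins (24 called), library totals alone gave 14, the replicate block 13, DESeq2 54, and leaving out a replicate or the Y59C pair of replicate 3 gave 0 to 15. The genome had 301 called bins, and 262, 259, 895 and 0 to 399 in the same order. For 100 kb windows (7 called, 84 in the genome), DESeq2 gave 13 (156 in the genome) and the deposited 100 kb counts 11 (69 higher and 25 lower in the genome). Leaving out a replicate or that pair gave 0 to 6, where the genome had 79, 56 and 1 without replicates 1, 2 and 3. Of the 1 Mb segments 1 of 7 was called, where 17.5% of the genome's 103 were called higher and 9.71% lower. Library totals alone gave 0, DESeq2 2, and leaving out a replicate or that pair 0 to 2 (genome counts of these fits not given). The cause was not tested, beyond fewer samples in the fits that leave out a replicate.

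For single strains and strain comparisons all 100 kb counts were 0, and stayed 0 under every other setting at that window size except DESeq2 in Y59C, with 3. With 10 kb bins, Dam-EMR over GFP-Dam gave 3 called bins in Y59C (3 with the replicate block, 59 with DESeq2) and 15 in Y59C cec-4 with DESeq2. The genome had 93, 74 and 872 in Y59C and 179 in Y59C cec-4. The ratio gave, with DESeq2 on 10 kb bins, 4 of 638 in Y59C minus GFP::LMN-1, 19 of 646 in Y59C cec-4 minus Y59C and 1 of 646 for the interaction. The genome had 117 of 9293, 328 of 9482 and 53 of 9482 in the same order. Dam-EMR reads alone gave on 10 kb bins 4 in Y59C minus GFP::LMN-1 (5 with the replicate block, 59 of 626 with DESeq2), 20 in Y59C cec-4 minus Y59C (12 with the block, 102 of 663 with DESeq2) and 2 in GFP::LMN-1 cec-4 minus GFP::LMN-1 with DESeq2. The genome had 118 in Y59C minus GFP::LMN-1 (113 with the block, 815 of 9106 with DESeq2). In Y59C cec-4 minus Y59C it had 370 (268 with the block, 1405 of 9667 with DESeq2), and in GFP::LMN-1 cec-4 minus GFP::LMN-1 51 with DESeq2. The cause of the gap between the tools was not tested.

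The arm's share of reads was 6.34% in Dam-EMR and 5.52% in GFP-Dam libraries over autosomal reads alone, and 6.00% and 5.50% without the 16 bins that exceed 0.5% of a library. The mean arm median stayed between 0.07 and 0.20 in every setting. Of 198 refits of 22 named bins and windows, 2 turned the direction (without replicate 1, the bins of srt-38 and ugt-13, whose log2 ratios ran from -0.48 to 4.77 and from -0.65 to 2.80 as each replicate was left out) and 80 others lost the call. The replicate block changed no call of a named bin or window other than those given.

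In simulated counts for the averaged ratio in 9735 bins of 10 kb, 12% of 2-fold and 58% of 4-fold changes were recovered. The simulation gave both fusions the same mean profile and the same spread in each bin. The part of Dam-EMR depth in this recovery was not tested.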
